A study of Mus musculus with 30 samples.

Results

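Mouse tendon labelled with stimulation and day 12 was compared with naive tendon, in a series on light-driven loading of the Achilles tendon. The 3 libraries labelled as stimulated tendon at day 12 and the 3 labelled as naive tendon were taken by their titles, 6 of the 30 libraries of the series, and all genes that passed a filter on low counts were compared. All 6 libraries carry the genotype label Acta1,Ai32. Ai32 is an allele that carries a channelrhodopsin, a light-gated cation channel, fused to a yellow fluorescent protein, and Acta1 encodes the actin of skeletal muscle. The 12-day stimulated group was labelled with stimulation and day 12, and the naive group with no treatment and day 0. Stimulated tendon means that of day 12 where no day is given. The labels add the word control to the stimulated libraries, which were taken as stimulated. The labels do not say in what form Acta1 enters the genotype or in which cells the channel was switched on. Age, sex, the number of stimulation sessions and the source of each replicate are missing from the labels. The p-values therefore measure only how these samples vary, and that spread may be technical. The naive group was taken at day 0, so stimulation, the 12 days and the handling in between cannot be told apart in this comparison, and the 3 libraries of unstimulated tendon at day 12, of the same genotype, are given beside many results. The series asked how light-driven muscle loading acts on the Achilles tendon and the heel bone.

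The Achilles tendon carries the force of the calf muscles to the heel. Its fibroblasts, the tenocytes, lie between parallel bundles of type I collagen and are kept in their identity by transcription factors such as Scleraxis, Mohawk and Egr1. Loading of a tendon is known to alter the transcription of its matrix genes, and unloading is known to lower Scleraxis. At its ends the tendon passes into muscle on one side and through fibrocartilage into bone on the other, and a dissected tendon can hold cells of either.

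The libraries held 24488997 to 35059331 counts in 12-day stimulated tendon and 33920435 to 44566322 in naive tendon. Genes with a count numbered 21431 to 23018 in the stimulated and 23584 to 23924 in the naive libraries, without overlap. The TMM scaling factors were 0.864 to 0.930 in the stimulated and 1.04 to 1.12 in the naive libraries, also without overlap. Tendon markers were present in every library: Scx, which encodes Scleraxis, stood at 8.55, 15.9 and 16.7 CPM in stimulated tendon, against 25.3, 26.2 and 40.7 CPM in naive tendon, and Tnmd, a tendon membrane protein gene, at 15.1, 55.6 and 37.7 CPM in stimulated tendon, against 148, 78 and 154 CPM in naive tendon. CPM are counts scaled to a common library total. All libraries also held muscle RNA. Sarcomere genes shared by all fibres took 11.2% ± 0.638 of the counts of 12-day stimulated libraries and 9.15% ± 0.578 of those of naive libraries (mean ± SD, n = 3 each), and fast-fibre genes took 15.9% ± 1.07 of the 12-day stimulated libraries and 10.6% ± 2.24 of the naive ones. Tendon fibroblast genes, a list with most of its counts from the type I collagen genes, took 0.369%, 1.26% and 0.893% of the 12-day stimulated libraries, against 4.03%, 2.13% and 5.08% of the naive libraries. The groups did not overlap in any of these shares, and each difference had an exact permutation p = 0.1, two-sided, the smallest that 3 against 3 libraries allow. In such bulk samples fewer cells of a type and less RNA per cell cannot be told apart. The part of these shares in the gene changes was not tested; with the mean level of the common sarcomere genes as a covariate 14 genes passed, and with that of interstitial fibroblast genes 23, but both levels differ between the groups, so makeup and group cannot be told apart.

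**Figure D1:**
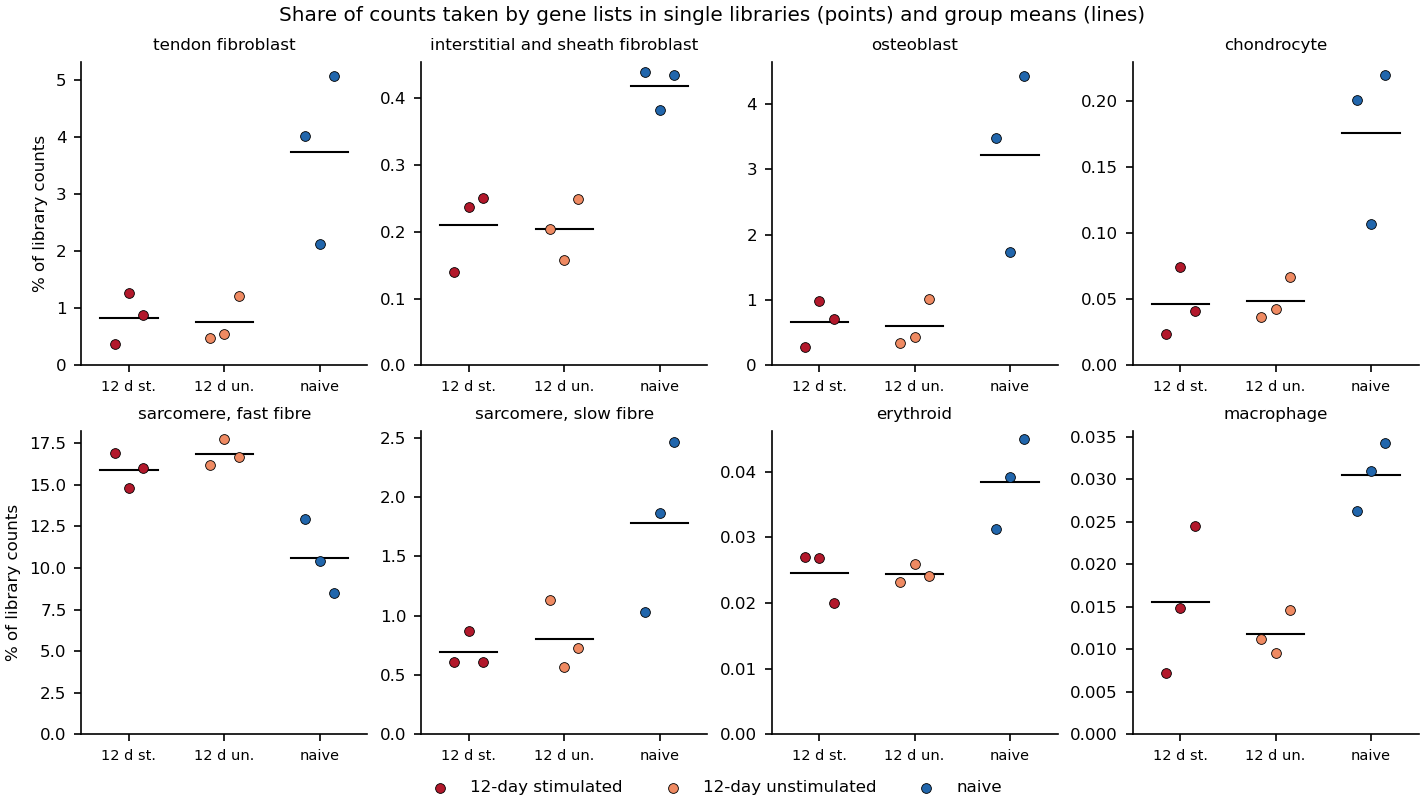
Share of each library's counts (y axis, percent, linear from 0) taken by 8 gene lists in 12-day stimulated, 12-day unstimulated and naive tendon (x axis); points are libraries and lines are group means. The fibroblast, bone and cartilage lists lie below naive in both 12-day groups, while the fast-fibre list lies above it at 14.8% to 16.9% against 8.47% to 12.9%. The tendon fibroblast and osteoblast lists share Col1a1 and Col1a2, which make up most of both shares in 12-day stimulated and naive libraries.

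Of 17108 genes tested with edgeR's quasi-likelihood test, 2026 (11.8%) were higher and 2143 (12.5%) lower in 12-day stimulated than in naive tendon at an adjusted p under 0.05, together 24.4%. Of these, 355 of the higher and 833 of the lower genes differed by more than 2-fold. In 7118 genes (41.6%) the libraries of both groups did not overlap in CPM, and 4007 genes (23.4%) both passed and did not overlap. The median log2 fold change over all genes was -0.01. On the first principal component of all 15 tendon libraries, which held 32.4% of the variance, the 12-day stimulated libraries stood between 19.1 and 54.2 and the naive ones between -56.1 and -35.0, and stimulated library 3 stood apart on the second component, at 49.1. The number of calls rested on single libraries: 1649 genes passed without naive library 3, 1713 without stimulated library 1 and 2544 without naive library 2. Against the same naive libraries, 1397 genes (8.17%) were higher and 1812 (10.6%) lower in 12-day unstimulated tendon, together 18.8%. In 5-day stimulated tendon 149 (0.871%) were higher and 243 (1.42%) lower, together 2.29%. These comparisons share the naive libraries and are given side by side only. Stimulated and unstimulated tendon at day 12 differed directly in 49 higher (0.286%) and 10 lower (0.0585%) genes, together 0.345%. Between 12-day and 5-day stimulated tendon 19 (0.111%) were higher and 13 (0.076%) lower at day 12, together 0.187%.

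The genes that stood highest over naive tendon included genes of immature muscle and its nerve contact (Myh8, Myl4 and Chrng), of the immediate early response (Nr4a3 and Atf3) and of calcium channels (Cacna1i and Cacna2d4), beside genes of other roles. Nr4a3, an orphan nuclear receptor gene induced by muscle contraction (ENSMUSG00000028341, chromosome 4, 48045153 to 48086447, plus strand, GRCm38), had 86.3, 66.3 and 62.6 CPM in stimulated tendon, against 9.66, 5.77 and 3.44 CPM in naive tendon. It rose by 3.5 ± 0.52 on the log2 scale (adjusted p = 0.00238). Each stimulated library lay far above the highest naive library. Atf3, a stress-induced transcription factor gene (ENSMUSG00000026628, chromosome 1, 191170296 to 191218039, minus strand), had 160.5, 53.6 and 176 CPM in stimulated tendon, against 14.3, 14.3 and 13.7 CPM in naive tendon. It rose by 3.21 ± 0.53 on the log2 scale (adjusted p = 0.00323). Its naive values were nearly equal to each other, and stimulated library 2 was the lowest of its group. Rasd2, a small GTPase gene, had 37.1, 13.5 and 29.9 CPM in stimulated tendon, against 2.84, 2.8 and 1.81 CPM in naive tendon. It rose by 3.43 ± 0.39 on the log2 scale (adjusted p = 0.000707). Slc25a48, a mitochondrial carrier gene, had 2.74, 1.2 and 2.88 CPM in stimulated tendon, against 0.303, 0.198 and 0.184 CPM in naive tendon. It rose by 3.28 ± 0.41 on the log2 scale (adjusted p = 0.000913). Mpp3, a membrane scaffold gene, had 54.1, 38.1 and 74.2 CPM in stimulated tendon, against 12.8, 11.9 and 8.18 CPM in naive tendon. It rose by 2.34 ± 0.29 on the log2 scale (adjusted p = 0.001). That the groups did not overlap was a condition for naming the largest rises and falls, and 41.6% of all genes met it.

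Several channel and receptor genes belonged to the same group of largest rises. Cacna1i, a T-type calcium channel subunit gene, had 3.59, 1.7 and 2.73 CPM in stimulated tendon, against 0.325, 0.371 and 0.315 CPM in naive tendon. It rose by 2.97 ± 0.38 on the log2 scale (adjusted p = 0.000954). Cacna2d4, an auxiliary calcium channel subunit gene, had 4.25, 6.42 and 2.73 CPM in stimulated tendon, against 0.737, 0.891 and 0.472 CPM in naive tendon. It rose by 2.66 ± 0.33 on the log2 scale (adjusted p = 0.000797). The stimulated libraries were above all naive ones in each, which was a condition for naming them. Celsr3, a cadherin receptor gene, rose by 2.34 on the log2 scale (adjusted p = 0.00196), and Sstr2, a somatostatin receptor gene, by 2.62 (adjusted p = 0.00694; 3.51 without naive library 1). Chrna9, a nicotinic acetylcholine receptor subunit gene, had 2.22, 0.326 and 8.37 CPM in stimulated tendon, against 0.13, 0.099 and 0.0787 CPM in naive tendon. It rose by 5.1 ± 0.96 on the log2 scale (adjusted p = 0.00514; 3.53 without stimulated library 3). Igfn1, a sarcomeric protein gene, had 28, 14.8 and 136 CPM in stimulated tendon, against 3.79, 3.76 and 3.93 CPM in naive tendon. It rose by 3.96 ± 0.84 on the log2 scale (adjusted p = 0.00794; 2.48 without stimulated library 3). Stimulated library 3 was by far the highest in both.

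Unstimulated tendon at day 12 split these genes into separate patterns against the same naive libraries. Rasd2 (2.65 ± 0.39, adjusted p = 0.00526), Cacna1i (2.64 ± 0.38, adjusted p = 0.00512) and Cacna2d4 (1.99 ± 0.33, adjusted p = 0.00704) were also higher there, as log2 fold changes. Atf3 (0.094 ± 0.50, adjusted p = 0.913), Nr4a3 (0.94 ± 0.50, adjusted p = 0.196), Slc25a48 (1.02 ± 0.45, adjusted p = 0.123) and Mpp3 (0.77 ± 0.29, adjusted p = 0.0743) did not pass. The direct difference between stimulated and unstimulated tendon at day 12 passed for Atf3 (3.11 ± 0.53, adjusted p = 0.0301), Slc25a48 (2.26 ± 0.40, adjusted p = 0.0301) and Mpp3 (1.56 ± 0.29, adjusted p = 0.0396), and did not for Nr4a3 (2.57 ± 0.50, adjusted p = 0.055).

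**Figure D2:**
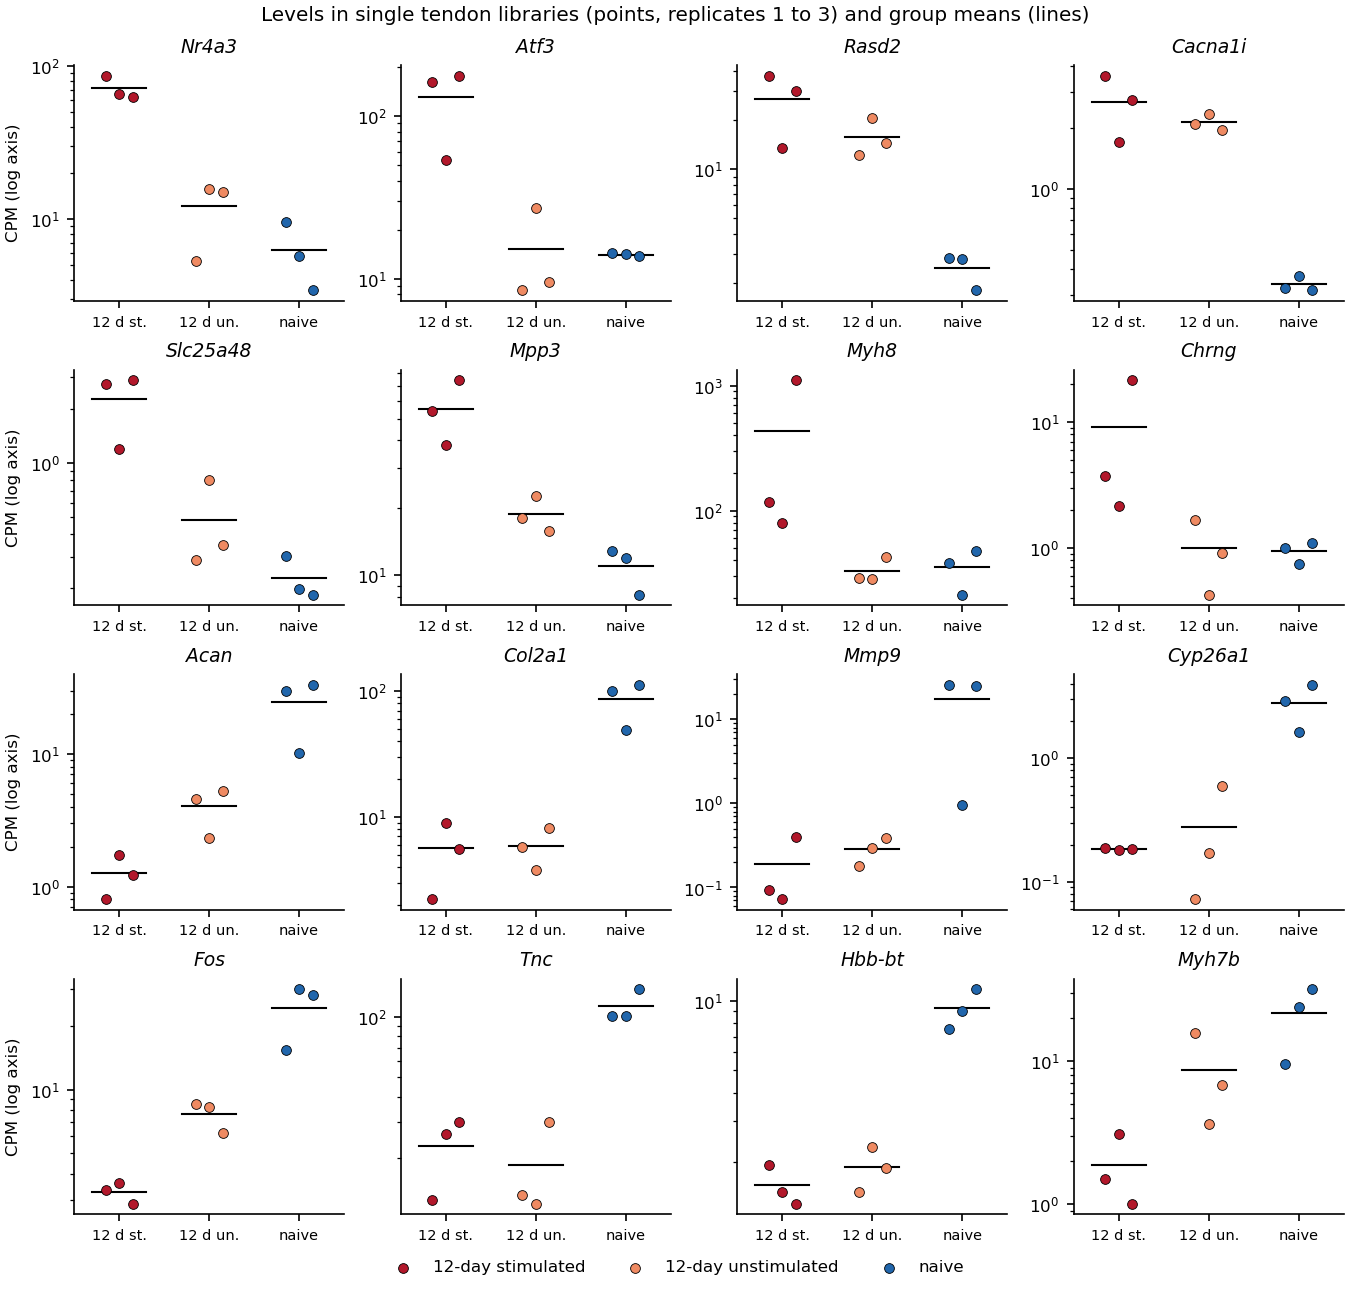
Levels of 16 genes in CPM (y axes, log scale, one range per gene) in single libraries of 12-day stimulated, 12-day unstimulated and naive tendon (x axis); points are replicates 1 to 3 and lines are means. Nr4a3 and Atf3 lie higher in stimulated tendon than in both other groups, Rasd2 and Cacna1i are high in both 12-day groups, and Acan, Col2a1, Mmp9, Tnc and Hbb-bt are low in both.

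Values of 5-day stimulated tendon stood between naive and 12-day values for several of these genes. Nr4a3 was higher than naive at day 5 (2.19 ± 0.50, adjusted p = 0.0437), as were Slc25a48 (2.21 ± 0.42, adjusted p = 0.0227) and Mpp3 (1.68 ± 0.29, adjusted p = 0.0187). Rasd2 did not pass at day 5 (0.73 ± 0.39, adjusted p = 0.322), and it was higher in 12-day than in 5-day stimulated tendon (2.7 ± 0.38, adjusted p = 0.0268). The difference between 12-day and 5-day stimulated tendon did not pass for Nr4a3 (1.31 ± 0.47, adjusted p = 0.184) or Atf3 (1.47 ± 0.49, adjusted p = 0.166).

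Genes of cartilage, bone and bone resorption were among the largest falls. Acan, the gene of the cartilage proteoglycan aggrecan (ENSMUSG00000030607, chromosome 7, 79053483 to 79115099, plus strand), had 0.803, 1.74 and 1.23 CPM in stimulated tendon, against 29.9, 10.1 and 33.1 CPM in naive tendon. It fell by 4.25 ± 0.74 on the log2 scale (adjusted p = 0.00393). Col2a1, the type II collagen gene of cartilage (ENSMUSG00000022483, chromosome 15, 97975602 to 98004695, minus strand), had 2.22, 9.02 and 5.61 CPM in stimulated tendon, against 99.99, 49.1 and 112 CPM in naive tendon. It fell by 3.93 ± 0.80 on the log2 scale (adjusted p = 0.00675). The highest stimulated library stayed below the lowest naive library in both, which was a condition for naming the largest falls. Mmp9, the gelatinase gene of osteoclasts and neutrophils, had 0.0945, 0.0725 and 0.399 CPM in stimulated tendon, against 25.8, 0.965 and 25.3 CPM in naive tendon. It fell by 6.37 ± 1.24 on the log2 scale (adjusted p = 0.00583; -7.66 without stimulated library 3). Naive library 2 was far below the other naive libraries in Mmp9. The same library was low in Mmp13, a collagenase gene of hypertrophic cartilage and osteoblasts, which had 0.0473, 0.217 and 0.153 CPM in stimulated tendon, against 6.5, 0.297 and 6.27 CPM in naive tendon. It fell by 4.86 ± 0.99 on the log2 scale (adjusted p = 0.00674). Bglap, which encodes osteocalcin of mature osteoblasts, was counted once over the 3 stimulated libraries and 426 times over the naive ones, a ratio of 0.0036 after scaling (95% exact interval 9.09e-05 to 0.0202, counting error only). Bglap2, its near copy, was counted 5 times against 251 times, a ratio of 0.0305 after scaling (0.00983 to 0.0722), with a call lost without stimulated library 1 (adjusted p 0.0565), and reads may be shared between both genes.

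Chondrocyte genes together took 0.0236%, 0.0745% and 0.041% of the counts of 12-day stimulated libraries, against 0.201%, 0.107% and 0.22% of naive libraries. Of 19 chondrocyte genes tested, 1 was higher and 9 were lower (median log2 fold change -1.99, -2.31 in 12-day unstimulated tendon). The count rested on single libraries (3 lower without stimulated library 1, 4 lower without stimulated library 3 or naive library 1 or 3). Matn3, the cartilage matrix gene of matrilin 3, had 0.236, 0.942 and 0.552 CPM in stimulated tendon, against 5.5, 5.1 and 8.66 CPM in naive tendon. It fell by 3.43 ± 0.83 on the log2 scale (adjusted p = 0.0134; lost without stimulated library 1 (adjusted p 0.0577)). Col11a2, a fibril collagen gene of cartilage, had 45.1, 98.1 and 68.3 CPM in stimulated tendon, against 266, 185 and 477 CPM in naive tendon. It fell by 2.13 ± 0.43 on the log2 scale (adjusted p = 0.00684). Further large falls had cartilage roles. Hapln1, the link protein gene, fell by 3.58 ± 1.04 on the log2 scale (adjusted p = 0.0279; -2.98 without naive library 1), and was lost without stimulated library 1 or 3 or naive library 1 or 3 (adjusted p 0.0618 to 0.0971). Clec3a, a cartilage lectin gene, fell by 3.62 ± 0.84 on the log2 scale (adjusted p = 0.0116; -4.68 without stimulated library 2 and -2.82 without naive library 1), and was lost without stimulated library 1 (adjusted p 0.0503). Scrg1, a gene of chondrogenesis, fell by 3.34 ± 0.83 on the log2 scale (adjusted p = 0.0144; -4.16 without stimulated library 2 and -2.63 without naive library 1), and was lost without stimulated library 1 (adjusted p 0.0507).

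Osteoblast genes took 0.279%, 0.988% and 0.718% of the counts of 12-day stimulated libraries, against 3.49%, 1.74% and 4.43% of naive libraries. Nearly all of these counts were those of the type I collagen genes Col1a1 and Col1a2, which are also in the tendon fibroblast list. The share is therefore mostly that of type I collagen and not of genes particular to bone. Of 20 osteoblast genes 11 were lower and none higher (median -1.7; 3 lower without stimulated library 1, 4 lower without naive library 3, 5 lower without naive library 1, 6 lower without stimulated library 3). Spp1, which encodes osteopontin, had 6.85, 12.6 and 6.84 CPM in stimulated tendon, against 66.7, 22.7 and 71.8 CPM in naive tendon. It fell by 2.61 ± 0.53 on the log2 scale (adjusted p = 0.00686). Of 14 osteoclast genes 6 were lower and 1 higher (3 lower without stimulated library 1 or naive library 1 or 3). Acp5, the gene of tartrate-resistant acid phosphatase, had 4.58, 3.48 and 8.22 CPM in stimulated tendon, against 32, 11.8 and 29.9 CPM in naive tendon. It fell by 2.16 ± 0.46 on the log2 scale (adjusted p = 0.00818). Itgb3, the integrin subunit gene of osteoclasts and platelets, had 2.17, 3.52 and 3.87 CPM in stimulated tendon, against 7.82, 8.37 and 10.1 CPM in naive tendon. It fell by 1.45 ± 0.28 on the log2 scale (adjusted p = 0.00512). Of 7 osteocyte genes 2 were lower (1 lower without naive library 3, 5 lower without stimulated library 2, of 7 to 9 tested). These were 28.6% of the list, against 24.4% of all genes called in either direction. Dmp1, a matrix protein gene of osteocytes, had 0.709, 0.942 and 0.706 CPM in stimulated tendon, against 5.05, 2.47 and 6.06 CPM in naive tendon. It fell by 2.52 ± 0.39 on the log2 scale (adjusted p = 0.00225). The other was Ptprz1, a receptor phosphatase gene (-1.24 ± 0.34, adjusted p = 0.0209), lost without stimulated library 3 or naive library 2 or 3 (adjusted p 0.0574 to 0.0781). Against the same naive libraries 12-day unstimulated tendon was lower in Acan (-2.59 ± 0.66, adjusted p = 0.0228), Col2a1 (-3.87 ± 0.79, adjusted p = 0.0131) and Mmp9 (-5.9 ± 1.18, adjusted p = 0.0125) as well.

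Other large falls had roles outside the skeleton. Cyp26a1, which encodes an enzyme that breaks down retinoic acid (ENSMUSG00000024987, chromosome 19, 37697798 to 37701536, plus strand), had 0.189, 0.181 and 0.184 CPM in stimulated tendon, against 2.9, 1.63 and 3.93 CPM in naive tendon. It fell by 3.91 ± 0.63 on the log2 scale (adjusted p = 0.0028). The 3 stimulated values were nearly equal. That they were all below the naive ones was a condition for naming the gene among the largest falls. Cyp26a1 was also lower in 12-day unstimulated tendon (-3.3 ± 0.59, adjusted p = 0.00972) and in 5-day stimulated tendon (-3.59 ± 0.59, adjusted p = 0.0148). Rp1, a microtubule-binding gene best known from photoreceptors, had 0.0945, 0.399 and 0.0307 CPM in stimulated tendon, against 2.47, 3.96 and 5.59 CPM in naive tendon. It fell by 4.5 ± 0.83 on the log2 scale (adjusted p = 0.00477; -6.06 without stimulated library 2). Pagr1a, a histone methyltransferase cofactor gene, fell by 4.08 on the log2 scale, but its call was lost without stimulated library 1, 2 or 3 or naive library 1, 2 or 3 (adjusted p 0.0577 to 0.125).

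Tendon identity genes stood below naive tendon. Of 20 tendon fibroblast genes 11 were lower and none higher, all 20 had fold changes below 0, and the median was -1.76. The count moved with single libraries (3 lower without stimulated library 1 or 3 or naive library 3, 4 lower without naive library 1). Scx averaged 13.7 ± 4.5 CPM in stimulated tendon and 30.7 ± 8.62 CPM in naive tendon (SD, n = 3 each; log2 fold change -1.15 ± 0.26, adjusted p = 0.00925). Egr1, a zinc finger factor gene that responds to load and supports tendon collagen expression, had 15.5, 26.1 and 15.3 CPM in stimulated tendon, against 49.4, 89.7 and 86.4 CPM in naive tendon. It fell by 1.99 ± 0.37 on the log2 scale (adjusted p = 0.00513). Tnc, the gene of tenascin C, a matrix protein of loaded tendon (ENSMUSG00000028364, chromosome 4, 63959785 to 64047015, minus strand), had 12.3, 26.1 and 30.1 CPM in stimulated tendon, against 101, 100.3 and 136 CPM in naive tendon. It fell by 2.29 ± 0.43 on the log2 scale (adjusted p = 0.00512). In these 3 genes the groups did not overlap and no single library ended the call. In 12-day unstimulated tendon Scx (-1.5, adjusted p = 0.00943), Egr1 (-1.63, adjusted p = 0.0161) and Tnc (-2.61, adjusted p = 0.00855) were lower than naive too. Of the 20 listed genes 12 were lower there and none higher (median -1.87). None of the 20 passed in the direct difference between stimulated and unstimulated tendon at day 12. Mkx, the gene of Mohawk, had 2.17, 8.12 and 5.09 CPM in stimulated tendon, against 15.9, 9.75 and 22.8 CPM in naive tendon. It fell by 1.64 ± 0.49 on the log2 scale (adjusted p = 0.031; lost without stimulated library 1 or 3 or naive library 1 or 3 (adjusted p 0.0565 to 0.118)). Comp, a cartilage and tendon matrix gene, stood at the threshold (-1.8 ± 0.61, adjusted p = 0.0495; -2.49 without stimulated library 2) and was lost without stimulated library 1 or 3 or naive library 1, 2 or 3 (adjusted p 0.052 to 0.143). The differences of Tnmd (-1.81 ± 0.62, adjusted p = 0.0508), Thbs4, a thrombospondin of muscle attachments (-0.91 ± 0.52, adjusted p = 0.218), and Fmod, which encodes fibromodulin (-1.45 ± 0.57, adjusted p = 0.0813), did not pass.

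Collagen genes were called lower too. Of 43 collagen genes 21 were lower and 1 was higher (median -0.86; 7 lower without naive library 3, 9 lower without stimulated library 1). Against naive, 12-day unstimulated tendon had 24 of them lower and 2 higher (median -1.12). Col1a1, the main fibrillar collagen gene of tendon, had 1448, 4626 and 3415 CPM in stimulated tendon, against 14176, 7328 and 19354 CPM in naive tendon. It fell by 2.11 ± 0.61 on the log2 scale (adjusted p = 0.0266). Col1a2, its partner chain, had 1752, 6080.4 and 4282 CPM in stimulated tendon, against 19311, 8089.6 and 19923 CPM in naive tendon. It fell by 1.97 ± 0.66 on the log2 scale (adjusted p = 0.0474). Col3a1, the collagen of thin and healing fibrils, had 729, 1129 and 1652 CPM in stimulated tendon, against 2352, 2303 and 2471 CPM in naive tendon. It fell by 1.02 ± 0.34 on the log2 scale (adjusted p = 0.0436). The groups did not overlap, but the call of Col1a1 was lost without stimulated library 1 or 3 or naive library 1 or 3 (adjusted p 0.0513 to 0.0963), that of Col1a2 without stimulated library 1 or 3 or naive library 1 or 3 (adjusted p 0.103 to 0.152) and that of Col3a1 without stimulated library 1 or 2 or naive library 1, 2 or 3 (adjusted p 0.0779 to 0.149). Col8a1, a short-chain collagen of vessels and sheaths, had 8.22, 16.3 and 14.3 CPM in stimulated tendon, against 60.1, 93.4 and 106 CPM in naive tendon. It fell by 2.73 ± 0.38 on the log2 scale (adjusted p = 0.0019). Col8a1 passed when any 1 library was left out. The exception was Col7a1, the anchoring fibril collagen gene (ENSMUSG00000025650, chromosome 9, 108953586 to 108984875, plus strand), with 72.9, 55.5 and 78.6 CPM in stimulated tendon, against 25.2, 20.9 and 14.3 CPM in naive tendon. It rose by 1.77 ± 0.25 on the log2 scale (adjusted p = 0.00185). Col7a1 was higher in 12-day unstimulated tendon too (1.05 ± 0.25, adjusted p = 0.0178).

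Genes that build and cross-link collagen were called lower as well. Of 35 genes of collagen processing 24 were lower and 1 higher (median -1.15; 14 lower without naive library 3, 15 lower without stimulated library 1). Against naive, 12-day unstimulated tendon had 23 of them lower and 1 higher (median -1.13). Loxl1, a cross-linking oxidase gene, had 12.5, 22.5 and 27.9 CPM in stimulated tendon, against 48.7, 61.5 and 70.3 CPM in naive tendon. It fell by 1.51 ± 0.26 on the log2 scale (adjusted p = 0.00356). Plod2, the lysyl hydroxylase gene for telopeptides, had 4.82, 7.54 and 8.07 CPM in stimulated tendon, against 19.7, 14.9 and 19.6 CPM in naive tendon. It fell by 1.4 ± 0.27 on the log2 scale (adjusted p = 0.00508). P4ha3, a prolyl hydroxylase subunit gene, had 0.567, 0.689 and 1.04 CPM in stimulated tendon, against 2.25, 2.87 and 3.28 CPM in naive tendon. It fell by 1.84 ± 0.35 on the log2 scale (adjusted p = 0.0047). Fkbp14, a collagen folding gene, had 8.32, 9.97 and 11.6 CPM in stimulated tendon, against 25.9, 19 and 25.7 CPM in naive tendon. It fell by 1.23 ± 0.21 on the log2 scale (adjusted p = 0.00338). None of these 4 genes overlapped between groups. Lox, the main lysyl oxidase gene, fell by 1.72 on the log2 scale (SE 0.55, adjusted p = 0.0405), a call lost without stimulated library 1 or 3 or naive library 1 or 3 (adjusted p 0.0901 to 0.138).

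Of 21 matricellular genes 16 were lower and none higher (median -1.69; 8 lower without stimulated library 1, 9 lower without stimulated library 3 or naive library 3). Against naive, 12-day unstimulated tendon had 14 of them lower and 1 higher (median -1.58). Thbs1, a thrombospondin that activates latent TGF-beta, had 21.5, 46.1 and 27.5 CPM in stimulated tendon, against 172, 123 and 226 CPM in naive tendon. It fell by 2.45 ± 0.46 on the log2 scale (adjusted p = 0.00538). Ccn4, a Wnt-induced matricellular gene, had 2.36, 4.68 and 4.45 CPM in stimulated tendon, against 10.4, 12.1 and 17.8 CPM in naive tendon. It fell by 1.8 ± 0.35 on the log2 scale (adjusted p = 0.00561). Thbs3 fell alike (-1.85 ± 0.36, adjusted p = 0.00567). Of 20 elastic fibre genes 15 were lower and none higher (median -1.16; 9 lower without stimulated library 1). Against naive, 12-day unstimulated tendon had 11 of them lower and none higher (median -1.01). Fbn1, the fibrillin gene of microfibrils, had 40.026, 75 and 83.3 CPM in stimulated tendon, against 257, 288 and 306 CPM in naive tendon. It fell by 2.1 ± 0.30 on the log2 scale (adjusted p = 0.00185). Mfap5, a microfibril gene, had 12.5, 25.2 and 22.2 CPM in stimulated tendon, against 50.1, 79.3 and 77.8 CPM in naive tendon. It fell by 1.78 ± 0.28 on the log2 scale (adjusted p = 0.0028). Emilin3 and Efemp2 fell by 1.90 and 1.13 on the log2 scale. Among 14 large proteoglycan and hyaluronan genes 7 were lower. Cd44, the hyaluronan receptor gene, had the smallest p of them, with 12.5, 15.9 and 17.2 CPM in stimulated tendon, against 40.8, 44.1 and 35.6 CPM in naive tendon. It fell by 1.4 ± 0.12 on the log2 scale (adjusted p = 8.83e-05). Vcan, which encodes versican, had 6.52, 9.42 and 14.6 CPM in stimulated tendon, against 40.9, 39.8 and 31.8 CPM in naive tendon. It fell by 1.87 ± 0.30 on the log2 scale (adjusted p = 0.00294). Has1, a hyaluronan synthase gene, had 0.0945, 0.254 and 0.307 CPM in stimulated tendon, against 1.78, 1.98 and 2.2 CPM in naive tendon. It fell by 3.1 ± 0.55 on the log2 scale (adjusted p = 0.00363). Lum and Bgn, the genes of lumican and biglycan, were among 4 of 13 small leucine-rich proteoglycan genes that were lower (-1.13 and -1.68), beside Aspn (-1.58 ± 0.29, adjusted p = 0.0047) and Prelp (-1.39 ± 0.35, adjusted p = 0.0152, lost without stimulated library 1 or 3 (adjusted p 0.0511 to 0.0586)).

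Of 22 genes of interstitial and sheath fibroblasts 10 were lower and 1 higher (median -0.84). Tppp3, a marker of tendon sheath progenitors (ENSMUSG00000014846, chromosome 8, 105467493 to 105471526, minus strand), had 43.4, 40.6 and 39.971 CPM in stimulated tendon, against 121, 109 and 128 CPM in naive tendon. It fell by 1.53 ± 0.16 on the log2 scale (adjusted p = 0.000455). Its values were close together within each group and the groups lay far apart. The Tppp3 difference of 12-day unstimulated from naive tendon did not pass (-0.39 ± 0.16, adjusted p = 0.0915), and the direct difference between stimulated and unstimulated tendon at day 12 did (-1.13 ± 0.16, adjusted p = 0.0138). In 5-day stimulated tendon it was also lower than naive (-1.86 ± 0.16, adjusted p = 0.000213). Pi16, a marker of adventitial fibroblasts, had 7.23, 15.1 and 11 CPM in stimulated tendon, against 33.9, 44 and 53 CPM in naive tendon. It fell by 1.97 ± 0.29 on the log2 scale (adjusted p = 0.00211). Dpp4, another such marker, had 0.898, 1.27 and 2.48 CPM in stimulated tendon, against 9.1, 7.77 and 11.8 CPM in naive tendon. It fell by 2.59 ± 0.38 on the log2 scale (adjusted p = 0.00205). Of 31 matrix protease and inhibitor genes 10 were lower and 1 higher (6 lower without naive library 3), with Plat, the tissue plasminogen activator gene (-1.09 ± 0.15, adjusted p = 0.00136), Plaur, the urokinase receptor gene (-1.31 ± 0.20, adjusted p = 0.00228), and Timp1 (-1.42 ± 0.24, adjusted p = 0.0035) among those lower.

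**Figure D3:**
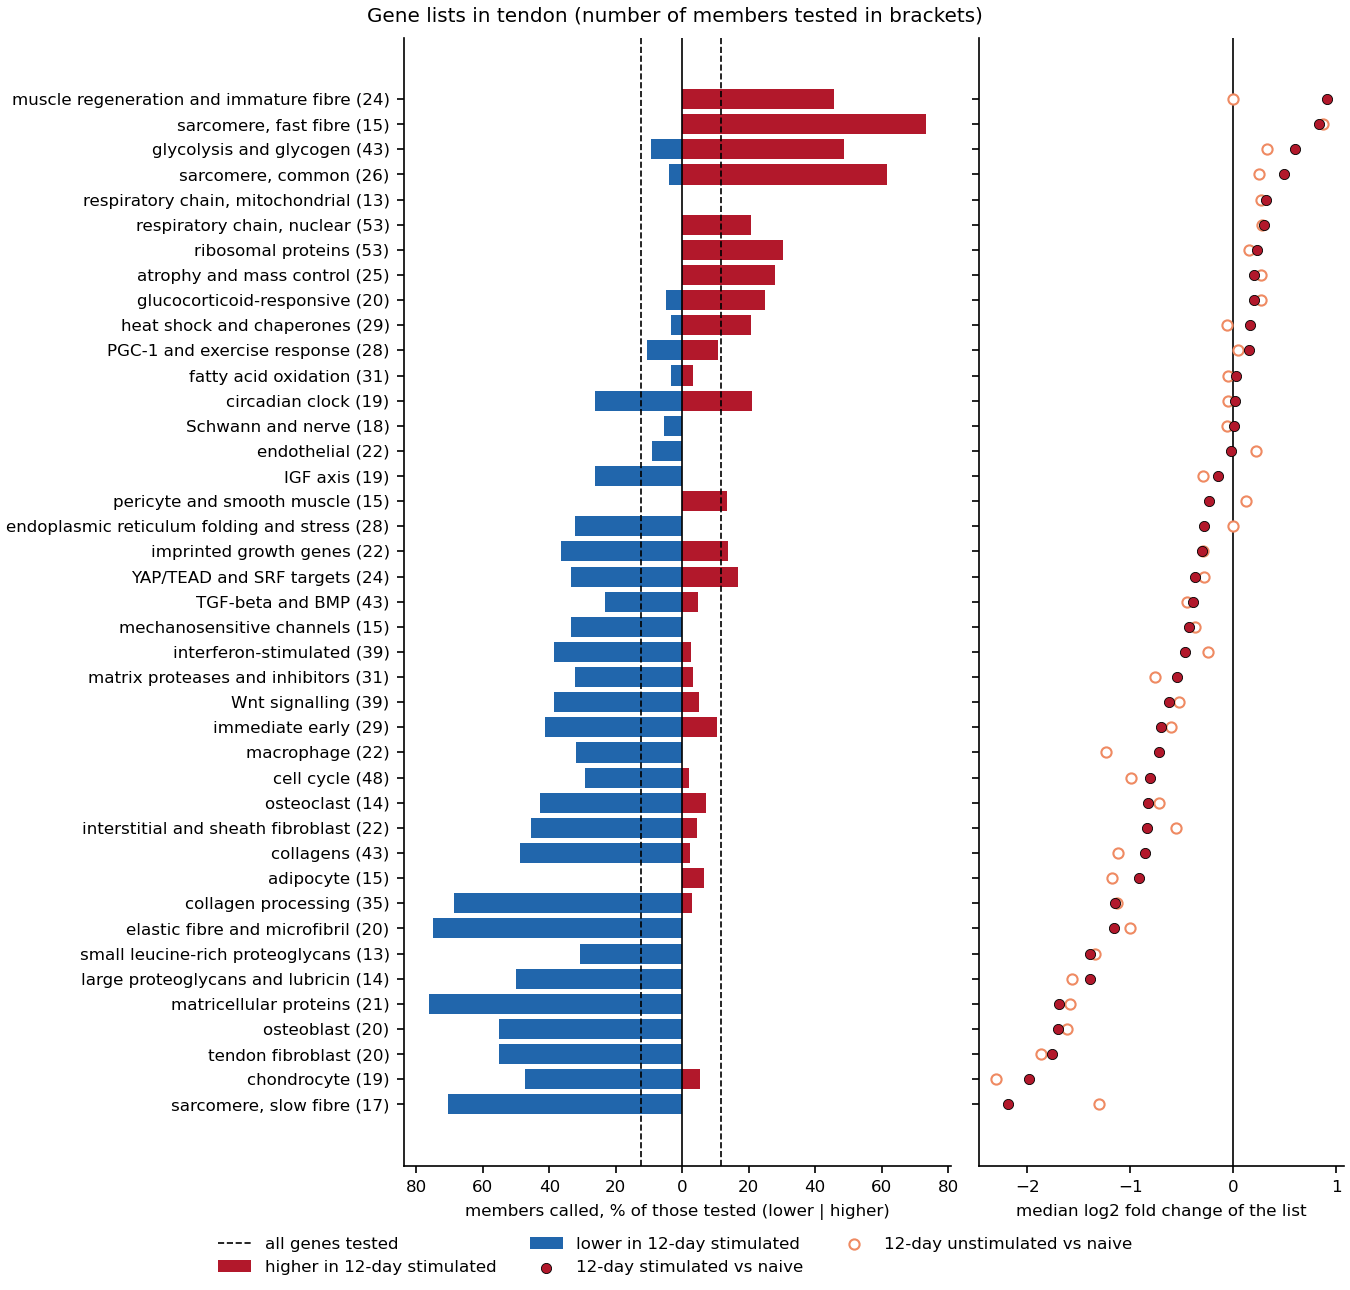
Gene lists with at least 10 members tested, ordered by median. Left, percent of tested members called lower (to the left) or higher (to the right) in 12-day stimulated than in naive tendon, with dashed lines at the 12.5% and 11.8% of all genes; right, median log2 fold change of each list against naive in 12-day stimulated (filled) and 12-day unstimulated tendon (open). Matrix lists stand at the lower end in both, while the immature fibre list is at 0.91 in stimulated and 0.00 in unstimulated tendon.

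Muscle genes moved in opposite directions by fibre type. Of 15 fast-fibre genes 11 were higher and none lower (median 0.83), and of 17 slow-fibre genes 12 were lower and none higher (median -2.19). Both counts rested on single libraries: for fast-fibre genes 2 higher without naive library 3, 3 higher without stimulated library 1, 5 higher without naive library 2, and for slow-fibre genes 1 lower without stimulated library 1 or 3 or naive library 3, 4 lower without naive library 2. Myl1, the fast alkali light chain gene, had 13967, 11168 and 12530.1 CPM in stimulated tendon, against 7709, 5954 and 5256 CPM in naive tendon. It rose by 0.99 ± 0.22 on the log2 scale (adjusted p = 0.0085). Tmod4, which caps thin filaments of skeletal muscle, had 432, 383 and 384 CPM in stimulated tendon, against 264, 235 and 192 CPM in naive tendon. It rose by 0.79 ± 0.18 on the log2 scale (adjusted p = 0.00885). Myoz1 (1.19 ± 0.29, adjusted p = 0.0124) and the fast troponin C gene Tnnc2 (0.91 ± 0.22, adjusted p = 0.012) were higher with calls lost without naive library 3 (adjusted p 0.0568) for Myoz1 and without stimulated library 1 or naive library 3 (adjusted p 0.0516 to 0.0568) for Tnnc2.

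Of the slow-fibre genes, Csrp3, which encodes muscle LIM protein, had 72.1, 48.5 and 108 CPM in stimulated tendon, against 269.6, 338 and 314 CPM in naive tendon. It fell by 2.01 ± 0.45 on the log2 scale (adjusted p = 0.00971). Csrp3 passed when any 1 library was left out. Myh7b, a slow-type myosin gene, had 1.51, 3.08 and 1.01 CPM in stimulated tendon, against 9.51, 23.8 and 31.7 CPM in naive tendon. It fell by 3.54 ± 0.90 on the log2 scale (adjusted p = 0.0164; -4.14 without stimulated library 2; lost without stimulated library 1 or 3 or naive library 3 (adjusted p 0.0586 to 0.0648)). Myh6, the alpha cardiac myosin gene, had 0.992, 1.2 and 0.123 CPM in stimulated tendon, against 2.99, 7.9 and 11.1 CPM in naive tendon. It fell by 3.3 ± 1.03 on the log2 scale (adjusted p = 0.0372; lost without stimulated library 1, 2 or 3 or naive library 2 or 3 (adjusted p 0.0515 to 0.117)). The slow troponin T gene Tnnt1 (-2.55 ± 0.69, adjusted p = 0.0207, lost without stimulated library 1 or 3 or naive library 3 (adjusted p 0.0696 to 0.0831)) and the stretch-responsive Ankrd2 (-2.37 ± 0.64, adjusted p = 0.0209, lost without stimulated library 1 or 3 or naive library 3 (adjusted p 0.0617 to 0.0705)) were lower too. For 12-day unstimulated tendon the slow-fibre list had a median of -1.3 with 1 gene lower, and the fast-fibre list a median of 0.87 with 13 higher. Slow-fibre genes took 0.608%, 0.872% and 0.613% of the counts of 12-day stimulated libraries, against 1.03%, 1.86% and 2.46% of naive libraries.

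Genes shared by all fibres followed the fast-fibre genes, with 16 of 26 higher and 1 lower (median 0.49; 4 higher without stimulated library 1 or naive library 3, 6 higher without naive library 2, 7 higher without stimulated library 3). Acta1 averaged 43163 ± 4512 CPM in stimulated tendon and 29070.1 ± 2637 CPM in naive tendon (SD, n = 3 each; log2 fold change 0.57 ± 0.16, adjusted p = 0.0246), a call lost without stimulated library 1 or 3 or naive library 2 or 3 (adjusted p 0.0559 to 0.0977). Xirp2, a gene of load-responsive Xin repeats at the sarcomere edge, had 2264, 1966 and 2358 CPM in stimulated tendon, against 1493, 1422 and 1297 CPM in naive tendon. It rose by 0.64 ± 0.10 on the log2 scale (adjusted p = 0.00254). Smyd1, a myosin chaperone gene (0.59 ± 0.10, adjusted p = 0.0031), and the M-band genes Myom1 (0.63 ± 0.12, adjusted p = 0.00438) and Myom2 (1.03 ± 0.22, adjusted p = 0.00737) were higher without overlap.

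Genes of immature and regenerating fibres were called higher in stimulated tendon in part. Of 24 tested, 11 were higher and none lower (median 0.91), against 1 higher and 3 lower in 12-day unstimulated tendon (median 0.00). The count moved with single libraries (4 higher without naive library 3, 5 higher without stimulated library 3, 7 higher without naive library 1). Without stimulated library 3 there were also 2 lower, and the median was 0.60. The list took 0.0993%, 0.0698% and 0.374% of the counts of 12-day stimulated libraries, against 0.123%, 0.113% and 0.114% of naive libraries (exact permutation p = 1, two-sided), so stimulated libraries 1 and 2 lay below and stimulated library 3 above all naive ones. Myh8, the perinatal myosin heavy chain gene (ENSMUSG00000055775, chromosome 11, 67277124 to 67308634, plus strand), had 117, 79.5 and 1105 CPM in stimulated tendon, against 38.2, 21.1 and 47.2 CPM in naive tendon. It rose by 3.61 ± 0.86 on the log2 scale (adjusted p = 0.0128; 1.47 without stimulated library 3). Myl4, the embryonic light chain gene, had 31.7, 25.8 and 244 CPM in stimulated tendon, against 8.02, 10.1 and 14 CPM in naive tendon. It rose by 3.24 ± 0.78 on the log2 scale (adjusted p = 0.0133; 1.43 without stimulated library 3). Chrng, the fetal subunit gene of the acetylcholine receptor, had 3.73, 2.14 and 21.4 CPM in stimulated tendon, against 0.996, 0.742 and 1.1 CPM in naive tendon. It rose by 3.27 ± 0.80 on the log2 scale (adjusted p = 0.0141; 1.62 without stimulated library 3; lost without stimulated library 3 or naive library 3 (adjusted p 0.0525 to 0.0621)). In each of the 3 genes stimulated library 3 was far above the next library. The other stimulated libraries also lay above all naive ones, which was a condition for naming the largest rises. Mymx, the gene of myomixer, a small protein of myoblast fusion, was more even, with 3.36, 1.74 and 2.98 CPM in stimulated tendon, against 0.78, 0.693 and 1.02 CPM in naive tendon. It rose by 1.69 ± 0.35 on the log2 scale (adjusted p = 0.00686). Myf6, a myogenic factor gene of mature fibres, had 122, 73.6 and 135 CPM in stimulated tendon, against 62.8, 60.5 and 48.6 CPM in naive tendon. It rose by 0.95 ± 0.19 on the log2 scale (adjusted p = 0.00619). Chrnb1, the beta subunit gene of the acetylcholine receptor, had 91.1, 54.9 and 120.3 CPM in stimulated tendon, against 54, 47.2 and 35.6 CPM in naive tendon. It rose by 0.96 ± 0.22 on the log2 scale (adjusted p = 0.0107; lost without naive library 3 (adjusted p 0.051)). Myh3, the embryonic myosin gene, was high in stimulated library 3 alone, with 53.7, 83.4 and 614 CPM in stimulated tendon, against 115, 128 and 168 CPM in naive tendon (log2 fold change 0.87 ± 0.94, adjusted p = 0.523), and did not pass. The satellite cell marker Pax7 (-0.19 ± 0.13, adjusted p = 0.304) and the differentiation factor Myog (-0.67 ± 0.24, adjusted p = 0.0605) did not pass either.

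**Figure D4:**
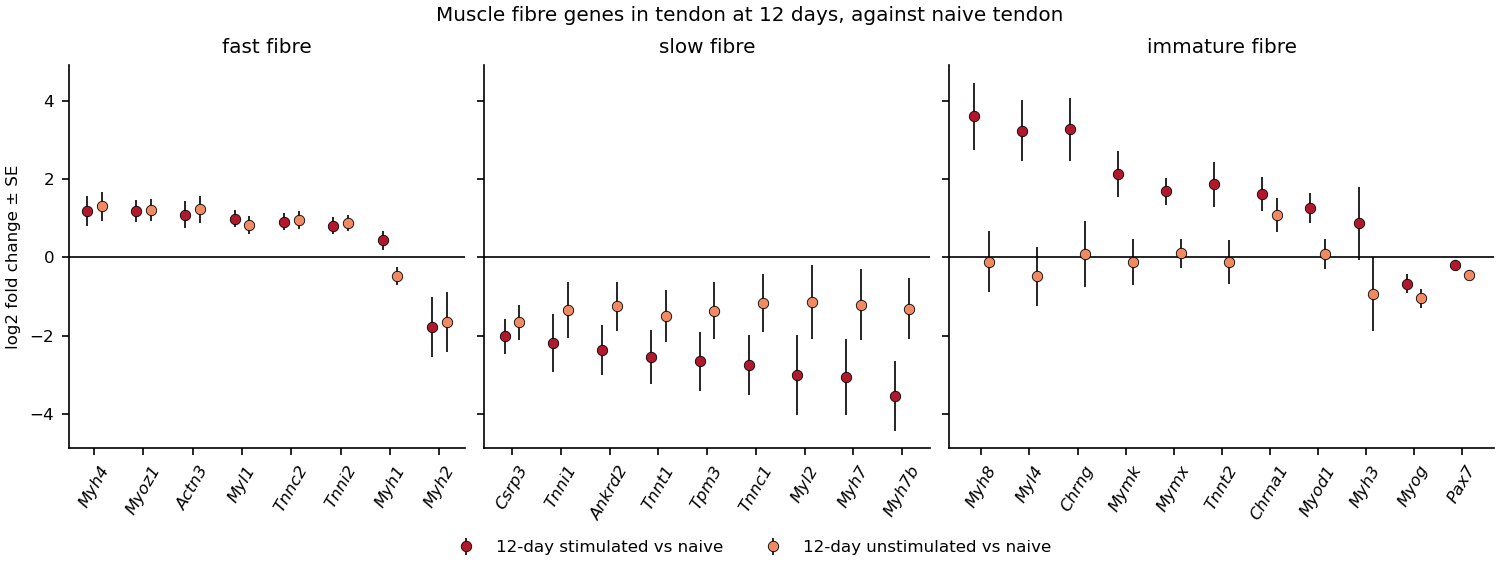
Log2 fold changes against naive tendon (y axis, ± SE) of fast-fibre, slow-fibre and immature fibre genes (x axis) in 12-day stimulated and 12-day unstimulated tendon. Slow-fibre genes lie below 0 in both groups, and Myh8, Myl4, Chrng and Mymx lie above 0 in stimulated tendon and near 0 in unstimulated tendon.

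Glycolysis was the metabolic list with the most calls. Of 43 genes of glycolysis and glycogen handling 21 were higher and 4 lower (median 0.60, 0.33 in 12-day unstimulated tendon), and 17 to 21 were higher and 1 to 5 lower when any 1 library was left out. Hk2, the gene of the hexokinase of insulin-responsive muscle (ENSMUSG00000000628, chromosome 6, 82725025 to 82774454, minus strand), had 993, 672 and 705 CPM in stimulated tendon, against 281, 264 and 224 CPM in naive tendon. It rose by 1.62 ± 0.14 on the log2 scale (adjusted p = 8.83e-05). Fbp2, the muscle fructose bisphosphatase gene, had 37.9, 30.6 and 26.8 CPM in stimulated tendon, against 9.4, 8.69 and 9.21 CPM in naive tendon. It rose by 1.8 ± 0.21 on the log2 scale (adjusted p = 0.000657). Aldoa, the muscle aldolase gene, had 22321, 18033 and 19576 CPM in stimulated tendon, against 9683, 7786 and 6357 CPM in naive tendon. It rose by 1.33 ± 0.24 on the log2 scale (adjusted p = 0.0038). Eno2, an enolase gene best known from neurons, had 9.83, 8.55 and 10.8 CPM in stimulated tendon, against 4.31, 4.36 and 3.52 CPM in naive tendon. It rose by 1.26 ± 0.14 on the log2 scale (adjusted p = 0.000656). All 4 were separate between the groups. Against naive tendon Fbp2 (1.6 ± 0.21, adjusted p = 0.00338) and Aldoa (0.98 ± 0.24, adjusted p = 0.0181) were higher in 12-day unstimulated tendon as well, whereas Hk2 (0.21 ± 0.14, adjusted p = 0.303) and Eno2 (-0.20 ± 0.15, adjusted p = 0.337) did not pass there, and both differed directly between stimulated and unstimulated tendon at day 12 (1.41 ± 0.14, adjusted p = 0.00132 for Hk2, 1.46 ± 0.15, adjusted p = 0.00132 for Eno2).

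Of the genes of oxidative metabolism fewer were called. Of 31 fatty acid oxidation genes 1 was higher and 1 lower (median 0.026; 0 to 2 in either direction with a library left out), and of 53 nuclear genes of the respiratory chain 11 were higher and none lower (median 0.30; 2 higher without stimulated library 1, 3 higher without naive library 3, 4 higher without stimulated library 2 or naive library 1 or 2). Without stimulated library 3 the nuclear count was 16 higher. The calls came to 20.8% of the nuclear genes, against 24.4% of all genes. Their share of the unscaled counts was 1.75% on average in both groups. Of 13 mitochondrial genes none passed, and 6 were higher without stimulated library 3 (median 0.51). Ndufs3, a complex I subunit gene, had 234, 219 and 198 CPM in stimulated tendon, against 148, 149 and 152 CPM in naive tendon. It rose by 0.54 ± 0.12 on the log2 scale (adjusted p = 0.00794). Ppargc1a, which encodes the coactivator PGC-1 alpha that exercise induces in muscle (ENSMUSG00000029167, chromosome 5, 51454250 to 51567726, minus strand), had 78.2, 42.6 and 27 CPM in stimulated tendon, against 14.3, 12.5 and 10.021 CPM in naive tendon. It rose by 2.0 ± 0.30 on the log2 scale (adjusted p = 0.00244). Its difference between 12-day unstimulated and naive tendon did not pass (0.41 ± 0.30, adjusted p = 0.343), and the direct difference at day 12 did (1.59 ± 0.30, adjusted p = 0.0482). Nmrk2, a muscle gene of NAD synthesis, had 39.6, 23.8 and 80.1 CPM in stimulated tendon, against 15.6, 17.7 and 15.2 CPM in naive tendon. It rose by 1.57 ± 0.33 on the log2 scale (adjusted p = 0.00771; 0.97 without stimulated library 3). The muscle factor gene Mef2a was higher (0.55 ± 0.13, adjusted p = 0.0123), with the call lost without naive library 3 (adjusted p 0.0587). Esrrg, an orphan receptor gene of oxidative muscle, had 8.7, 12.5 and 6.78 CPM in stimulated tendon, against 17.3, 24.3 and 23.1 CPM in naive tendon. It fell by 1.21 ± 0.29 on the log2 scale (adjusted p = 0.0121; lost without stimulated library 1 (adjusted p 0.0507)).

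The immediate early genes split. Of 29 tested, 3 were higher and 12 lower (median -0.70), and 9 to 15 were lower with a library left out. Fos, the AP-1 gene that serves as a common mark of acute stimulation, stood opposite to Nr4a3 and Atf3, with 3.36, 3.62 and 2.88 CPM in stimulated tendon, against 15.4, 29.9 and 28.1 CPM in naive tendon. It fell by 2.9 ± 0.37 on the log2 scale (adjusted p = 0.00105). The zinc finger gene Egr3 had 1.84, 2.07 and 3.13 CPM in stimulated tendon, against 5.55, 7.28 and 9.05 CPM in naive tendon. It fell by 1.62 ± 0.25 on the log2 scale (adjusted p = 0.00225). Its relative Egr2 had 1.61, 1.63 and 2.39 CPM in stimulated tendon, against 4.38, 7.75 and 8.39 CPM in naive tendon. It fell by 1.85 ± 0.32 on the log2 scale (adjusted p = 0.00332). Ier3, a survival gene, had 4.77, 5.55 and 3.25 CPM in stimulated tendon, against 9.4, 10.4 and 14 CPM in naive tendon. It fell by 1.32 ± 0.22 on the log2 scale (adjusted p = 0.00297). The naive libraries were above all stimulated ones in each of these 4 genes. Nab2, a corepressor gene of the Egr factors and the third of the higher genes, was named after its values were seen and had 70.8, 36.5 and 85.8 CPM in stimulated tendon, against 27.6, 28.2 and 27.6 CPM in naive tendon. It rose by 1.21 ± 0.26 on the log2 scale (adjusted p = 0.00825). In 12-day unstimulated tendon Fos (-1.67 ± 0.34, adjusted p = 0.0128), Egr3 (-1.51 ± 0.25, adjusted p = 0.00704) and Egr2 (-1.57 ± 0.31, adjusted p = 0.0119) were lower than in naive tendon too. Nr4a1, a relative of Nr4a3, did not pass (-0.52 ± 0.23, adjusted p = 0.108).

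Fos, Nr4a3 and Atf3 are textbook targets of CREB, which binds the cyclic AMP response element. Their promoters are shown because they moved in opposite directions; bases that match the element's core TGACG on either strand are in capitals. The sequences run 5′ to 3′ from 250 bases before to 50 after the start site and are RefSeq's for GRCm38.p6 (Fos chr12:85473640-85473939, plus strand; Nr4a3 chr4:48045055-48045354, plus strand; Atf3 chr1:191183284-191183583, minus strand).
Fos: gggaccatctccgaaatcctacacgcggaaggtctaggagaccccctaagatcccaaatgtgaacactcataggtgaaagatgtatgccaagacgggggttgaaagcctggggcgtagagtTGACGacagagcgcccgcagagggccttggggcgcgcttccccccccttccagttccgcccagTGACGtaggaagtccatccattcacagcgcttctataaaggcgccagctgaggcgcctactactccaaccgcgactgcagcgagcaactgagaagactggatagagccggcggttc
Nr4a3: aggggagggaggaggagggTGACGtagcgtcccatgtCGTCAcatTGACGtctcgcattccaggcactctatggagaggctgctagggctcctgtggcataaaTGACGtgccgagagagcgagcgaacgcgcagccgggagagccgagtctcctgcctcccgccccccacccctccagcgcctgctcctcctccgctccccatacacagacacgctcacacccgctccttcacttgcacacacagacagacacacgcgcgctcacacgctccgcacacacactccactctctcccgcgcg
Atf3: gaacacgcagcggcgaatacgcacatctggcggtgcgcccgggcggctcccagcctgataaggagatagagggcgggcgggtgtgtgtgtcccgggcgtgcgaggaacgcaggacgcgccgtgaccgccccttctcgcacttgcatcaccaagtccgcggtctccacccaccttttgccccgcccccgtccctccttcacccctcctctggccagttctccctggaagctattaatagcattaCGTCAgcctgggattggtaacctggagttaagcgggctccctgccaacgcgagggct
The core was found 2 times in the window of Fos, 4 times in that of Nr4a3 and 1 time in that of Atf3, and 20.8% of 32851 promoter windows of this length hold at least 1. The Atf3 window lies inside the gene as annotated, downstream of its annotated start. A match is a description of the letters, and all 3 windows hold it although the genes moved apart.

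Genes tied to mechanical signals gave no single direction. Of 24 targets of YAP and SRF and their factors 4 were higher and 8 lower (1 higher without stimulated library 1; 4 lower without stimulated library 1 or 3 or naive library 3). Ccn1, a classical target of YAP, had 25.4, 47.1 and 21.9 CPM in stimulated tendon, against 64.6, 75.7 and 159 CPM in naive tendon. It fell by 1.66 ± 0.36 on the log2 scale (adjusted p = 0.00818). Ccn2, the gene of connective tissue growth factor, had 9.03, 71.4 and 19.1 CPM in stimulated tendon, against 103, 162 and 448 CPM in naive tendon. It fell by 2.84 ± 0.75 on the log2 scale (adjusted p = 0.0195; -4.08 without stimulated library 2 and -1.99 without naive library 3; lost without stimulated library 1 or 3 or naive library 3 (adjusted p 0.0653 to 0.0914)). Vcl, the vinculin gene of focal adhesions, had 261, 133 and 271 CPM in stimulated tendon, against 127, 123 and 97.4 CPM in naive tendon. It rose by 0.94 ± 0.21 on the log2 scale (adjusted p = 0.00862). Yap1 itself rose by 0.35 (SE 0.079, adjusted p = 0.00925), lost without stimulated library 1 (adjusted p 0.0507). Tpm4, a non-muscle tropomyosin gene, was lower (-0.85 ± 0.16, adjusted p = 0.00468). Of 15 mechanosensitive channel genes 5 were lower and none higher (1 lower without stimulated library 1, 2 lower without stimulated library 3 or naive library 3, 3 lower without naive library 1), and 2 are given here. Pkd1, which encodes polycystin 1, had 70.5, 94.1 and 84.3 CPM in stimulated tendon, against 183, 142 and 169.7 CPM in naive tendon. It fell by 0.99 ± 0.20 on the log2 scale (adjusted p = 0.00578). The stretch-activated channel gene Piezo2 had 2.36, 5.11 and 5.34 CPM in stimulated tendon, against 12.3, 10.8 and 16.8 CPM in naive tendon. It fell by 1.62 ± 0.44 on the log2 scale (adjusted p = 0.0212; lost without stimulated library 1 or naive library 3 (adjusted p 0.0795 to 0.0811)). Of 43 TGF-beta and BMP genes 2 were higher and 10 lower (1 higher without stimulated library 1 or naive library 3; 5 lower without stimulated library 1 or naive library 3). With 27.9% called, this list was near the 24.4% of all genes. Gdf11, a ligand gene close to myostatin, had 60.1, 65.3 and 78.8 CPM in stimulated tendon, against 26.3, 16.7 and 20.9 CPM in naive tendon. It rose by 1.67 ± 0.29 on the log2 scale (adjusted p = 0.00384). Inhba, the activin A subunit gene, had 1.46, 2.21 and 1.69 CPM in stimulated tendon, against 6.91, 5.77 and 5.35 CPM in naive tendon. It fell by 1.74 ± 0.28 on the log2 scale (adjusted p = 0.00281). Bmp3 fell by 2.35 on the log2 scale, and of 39 Wnt genes 15 were lower and 2 higher, among them Wnt5a (-0.50 ± 0.10, adjusted p = 0.00586) and Dkk3 (-2.19 ± 0.50, adjusted p = 0.0112, lost without stimulated library 1 (adjusted p 0.0509)). The Wnt count moved with single libraries (3 lower without stimulated library 1, 5 lower without naive library 3, 8 lower without naive library 2, 9 lower without naive library 1; between 0 and 4 higher with any 1 library left out).

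The metallothionein genes Mt1 and Mt2 and some genes of stress and muscle mass rose. Of 25 genes of atrophy and mass control 7 were higher and none lower (4 higher without naive library 3), and of 20 glucocorticoid-responsive genes 5 were higher and 1 lower (3 higher without stimulated library 3). In these lists 28% and 30% were called, against 24.4% of all genes in either direction. Mt1, a metal-binding stress protein gene in both lists, had 146, 63.2 and 242 CPM in stimulated tendon, against 31.6, 40.5 and 25.2 CPM in naive tendon. It rose by 2.21 ± 0.38 on the log2 scale (adjusted p = 0.00364). Mt2, its neighbour, had 168, 70.6 and 346 CPM in stimulated tendon, against 52.8, 67.9 and 27.5 CPM in naive tendon. It rose by 1.98 ± 0.47 on the log2 scale (adjusted p = 0.0132; 1.27 without stimulated library 3; lost without naive library 3 (adjusted p 0.0587)). Stimulated library 2 was the lowest of its group in both, in Mt2 only just above the highest naive library. Fkbp5, a cochaperone gene used as a readout of glucocorticoid action (ENSMUSG00000024222, chromosome 17, 28399094 to 28517527, minus strand), had 66.2, 60.6 and 55.6 CPM in stimulated tendon, against 20.3, 24 and 24.1 CPM in naive tendon. It rose by 1.42 ± 0.13 on the log2 scale (adjusted p = 0.000151). In 12-day unstimulated tendon, with 92.9, 86.3 and 86.7 CPM, it was also higher than in naive tendon (1.96 ± 0.14, adjusted p = 2.46e-05). The ubiquitin ligase gene Fbxo32, also called atrogin 1, had 255, 275 and 165 CPM in stimulated tendon, against 121, 133 and 136 CPM in naive tendon. It rose by 0.83 ± 0.19 on the log2 scale (adjusted p = 0.00919). Hdac4, whose product represses muscle genes after loss of nerve input, had 56, 51.1 and 47.7 CPM in stimulated tendon, against 35.8, 32.3 and 35.2 CPM in naive tendon. It rose by 0.58 ± 0.088 on the log2 scale (adjusted p = 0.00214). Glul, which encodes glutamine synthetase, rose by 0.67 (adjusted p = 0.0149), lost without stimulated library 1 or 3 or naive library 3 (adjusted p 0.0521 to 0.0701).

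The promoters of Mt1 and Mt2 are shown since both genes moved together; capitals mark matches to the core of the metal response element, searched as TGCACNC or TGCGCNC on both strands (RefSeq, GRCm38.p6, Mt1 chr8:94178839-94179138, plus strand; Mt2 chr8:94172368-94172667, plus strand).
Mt1: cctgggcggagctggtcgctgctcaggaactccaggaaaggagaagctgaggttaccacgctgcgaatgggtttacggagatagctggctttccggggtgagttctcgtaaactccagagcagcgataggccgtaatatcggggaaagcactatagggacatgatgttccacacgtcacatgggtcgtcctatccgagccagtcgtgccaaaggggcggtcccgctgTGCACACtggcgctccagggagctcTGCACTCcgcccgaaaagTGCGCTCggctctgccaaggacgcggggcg
Mt2: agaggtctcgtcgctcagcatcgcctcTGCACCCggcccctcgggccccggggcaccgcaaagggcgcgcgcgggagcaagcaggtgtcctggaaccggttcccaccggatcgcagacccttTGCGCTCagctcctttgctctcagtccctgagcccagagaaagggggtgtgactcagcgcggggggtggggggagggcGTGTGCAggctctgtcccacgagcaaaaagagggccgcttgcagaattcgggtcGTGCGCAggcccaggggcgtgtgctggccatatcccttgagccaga
The core was found 3 times in the window of Mt1 and 4 times in that of Mt2, and 25.7% of all windows hold it at least once.

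Clock genes changed in both directions. The circadian clock is a loop in which the Arntl product with its partner activates genes through E-boxes, among them its own repressors, while receptors of the ROR and REV-ERB type act on Arntl and other genes through a separate element. Of 19 clock genes 4 were higher and 5 lower. Arntl, also called Bmal1 (ENSMUSG00000055116, chromosome 7, 113207465 to 113314126, plus strand), had 11, 5.76 and 8.96 CPM in stimulated tendon, against 2.49, 2.23 and 2.7 CPM in naive tendon. It rose by 1.79 ± 0.23 on the log2 scale (adjusted p = 0.000954). Nfil3, a repressor gene, had 26.9, 17 and 17.5 CPM in stimulated tendon, against 9.77, 8.39 and 8.97 CPM in naive tendon. It rose by 1.17 ± 0.17 on the log2 scale (adjusted p = 0.00158). Ciart, a repressor gene driven by E-boxes (ENSMUSG00000038550, chromosome 3, 95878503 to 95882251, minus strand), had 2.03, 4.64 and 2.15 CPM in stimulated tendon, against 6.28, 9.21 and 6.93 CPM in naive tendon. It fell by 1.34 ± 0.28 on the log2 scale (adjusted p = 0.00696). Hlf, an output activator gene, had 9.17, 14.6 and 7.95 CPM in stimulated tendon, against 21.8, 18.6 and 18.2 CPM in naive tendon. It fell by 0.89 ± 0.17 on the log2 scale (adjusted p = 0.00468). The groups were apart in all 4. The remaining called members, named after their values were seen, were Npas2 (1.31 ± 0.37, adjusted p = 0.0238) and Cry1 (0.50 ± 0.11, adjusted p = 0.00708), which were higher, and Per3 (-0.43 ± 0.10, adjusted p = 0.00997), Nr1d2 (-0.52 ± 0.14, adjusted p = 0.0194) and Dbp (-0.79 ± 0.18, adjusted p = 0.011), which were lower. The call of Npas2 was lost without stimulated library 1 or 3 or naive library 1, 2 or 3 (adjusted p 0.0524 to 0.104) and that of Nr1d2 without stimulated library 1 or 3 or naive library 1 or 2 (adjusted p 0.0519 to 0.0578). In 12-day unstimulated tendon Arntl (1.12 ± 0.23, adjusted p = 0.0125) and Nfil3 (0.95 ± 0.17, adjusted p = 0.00942) were higher and Hlf (-0.61 ± 0.17, adjusted p = 0.0262) was lower, and Ciart did not pass (-0.78 ± 0.27, adjusted p = 0.0627). The time of day of sampling is missing from the labels, and its part in these values was not tested.

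The promoters of Ciart and Arntl are shown as those of the member that fell and the member that rose most. Capitals mark matches to the E-box CACGTG, or to AGGTCA, the core bound by ROR and REV-ERB receptors, on either strand (RefSeq, GRCm38.p6, Ciart chr3:95882179-95882478, minus strand; Arntl chr7:113207261-113207560, plus strand).
Ciart: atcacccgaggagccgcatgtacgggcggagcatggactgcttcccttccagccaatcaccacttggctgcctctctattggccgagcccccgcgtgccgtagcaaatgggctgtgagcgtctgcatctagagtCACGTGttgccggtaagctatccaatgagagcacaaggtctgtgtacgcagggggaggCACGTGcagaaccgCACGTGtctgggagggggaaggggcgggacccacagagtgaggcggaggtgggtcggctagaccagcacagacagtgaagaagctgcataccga
Arntl: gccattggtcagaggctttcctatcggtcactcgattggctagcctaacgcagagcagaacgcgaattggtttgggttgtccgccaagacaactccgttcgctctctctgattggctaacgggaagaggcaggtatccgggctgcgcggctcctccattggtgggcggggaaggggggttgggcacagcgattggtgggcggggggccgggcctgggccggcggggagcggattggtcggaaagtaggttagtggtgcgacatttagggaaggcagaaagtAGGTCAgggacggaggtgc
The window of Ciart held the E-box 3 times and AGGTCA in 0 places, and the window of Arntl, at the later of the pair of start sites in the table, held AGGTCA 1 time and the E-box in 0 places. The earlier Arntl window (chr7:113207215-113207514), at the start of the gene as annotated, held neither and is not shown. Of all windows 7.15% hold the E-box and 16.3% hold AGGTCA.

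**Figure D5:**
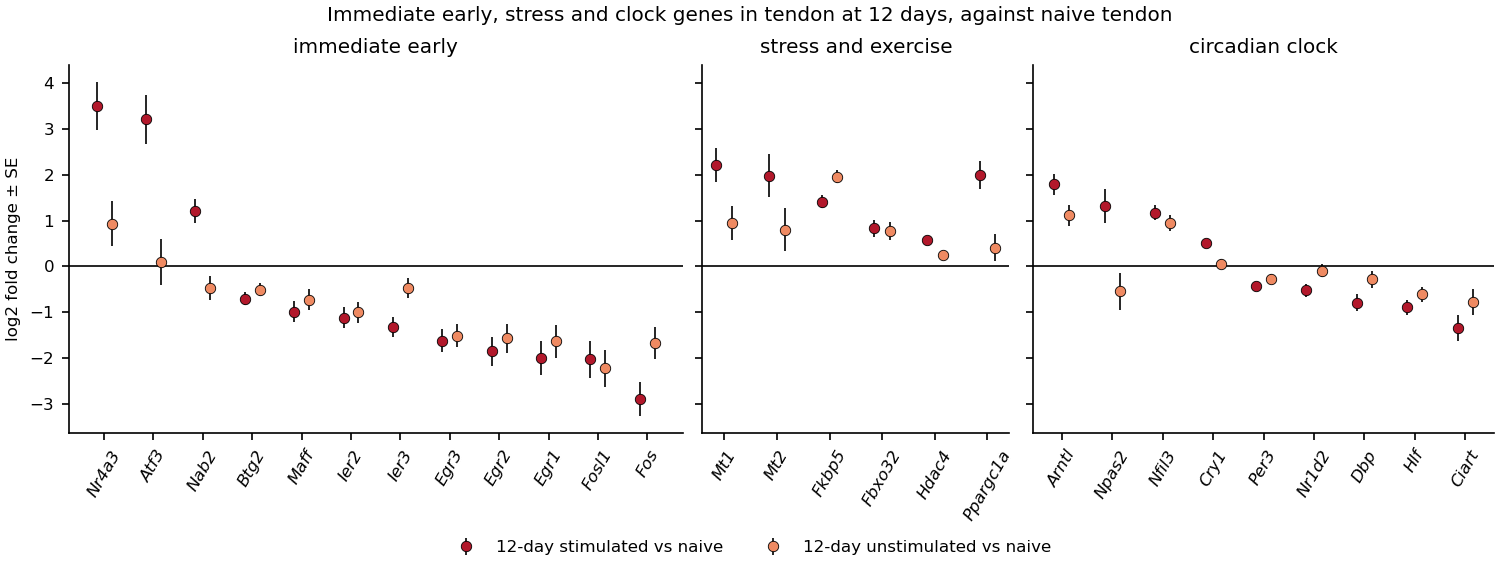
Log2 fold changes against naive tendon (y axis, ± SE) of immediate early genes, of stress and exercise genes and of clock genes (x axis) in 12-day stimulated and 12-day unstimulated tendon. Nr4a3 and Atf3 are the 2 highest of the immediate early genes in stimulated tendon and Fos the lowest, and the clock genes run between Arntl at 1.79 and Ciart at -1.34.

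Imprinted transcripts of the Dlk1 and Dio3 region were lower together. Meg3, Rian and Mirg are noncoding RNA genes of the maternal copy of this region. Meg3 had 128, 195 and 161 CPM in stimulated tendon, against 322, 297 and 438 CPM in naive tendon. It fell by 1.12 ± 0.18 on the log2 scale (adjusted p = 0.00281). Rian (ENSMUSG00000097451, chromosome 12, 109603940 to 109661716, plus strand) had 63, 71.1 and 71.3 CPM in stimulated tendon, against 204, 153 and 236 CPM in naive tendon. It fell by 1.53 ± 0.18 on the log2 scale (adjusted p = 0.000749). The third of them, Mirg, had 3.36, 3.12 and 3.47 CPM in stimulated tendon, against 11.9, 8.91 and 13.8 CPM in naive tendon. It fell by 1.8 ± 0.21 on the log2 scale (adjusted p = 0.000656). The stimulated values of Rian and Mirg were close together and far below the lowest naive library. Against naive tendon neither Rian (-0.28 ± 0.18, adjusted p = 0.284) nor Mirg (-0.30 ± 0.19, adjusted p = 0.276) passed in 12-day unstimulated tendon, and both differed directly between stimulated and unstimulated tendon at day 12 (-1.25 ± 0.18, adjusted p = 0.0146 for Rian, -1.49 ± 0.21, adjusted p = 0.0138 for Mirg). In all 8 of 22 imprinted growth genes were lower and 3 higher (3 lower without stimulated library 1, 4 lower without naive library 3; 1 higher without stimulated library 1 or 3 or naive library 2 or 3, 5 higher without stimulated library 2). Slc38a4, an amino acid transporter gene, had 82.7, 49.9 and 96 CPM in stimulated tendon, against 35.8, 26 and 25.1 CPM in naive tendon. It rose by 1.4 ± 0.23 on the log2 scale (adjusted p = 0.00308). H19 (0.36 ± 0.22, adjusted p = 0.246) and Igf2 (0.71 ± 0.37, adjusted p = 0.169) did not pass. Igf1, the growth factor gene of fibroblasts and muscle, had 14.1, 21.7 and 22 CPM in stimulated tendon, against 43, 45.8 and 48.1 CPM in naive tendon. It fell by 1.24 ± 0.32 on the log2 scale (adjusted p = 0.0165; lost without stimulated library 1 or naive library 3 (adjusted p 0.0552 to 0.0697)). Of 19 IGF axis genes 5 were lower and none higher (0 lower without naive library 3, 1 lower without stimulated library 1 or 3, 3 lower without naive library 1 or 2). With 26.3% called, this list was near the 24.4% of all genes called in either direction.

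The smallest p of all genes was that of Hbb-bt, a beta globin gene (ENSMUSG00000073940, chromosome 7, 103812524 to 103813996, minus strand), with 1.94, 1.49 and 1.32 CPM in stimulated tendon, against 7.52, 9.06 and 11.2 CPM in naive tendon. It fell by 2.56 ± 0.19 on the log2 scale (adjusted p = 4.6e-05). Hba-a1, an alpha globin gene, had 9.78, 5.55 and 6.84 CPM in stimulated tendon, against 23.3, 28.5 and 32.2 CPM in naive tendon. It fell by 1.93 ± 0.17 on the log2 scale (adjusted p = 9.08e-05). Hbb-bs and Hba-a2, their near copies, fell by 2.01 and 1.94 on the log2 scale, and the split of reads between such copies is uncertain. Alas2, the first heme synthesis gene of red cells, named after its values were seen, fell too (-2.22 ± 0.43, adjusted p = 0.00539), and 5 of 6 erythroid genes were lower. With a library left out 5 were lower each time, of the 7 or 8 then tested. Against naive tendon Hbb-bt was also lower in 12-day unstimulated tendon (-2.29 ± 0.18, adjusted p = 5.82e-05), and its difference in 5-day stimulated tendon did not pass (0.057 ± 0.16, adjusted p = 0.876), while 12-day stimulated tendon was lower than 5-day stimulated tendon (-2.62 ± 0.19, adjusted p = 3.6e-05). Of 22 macrophage genes 7 were lower and none higher (2 lower without stimulated library 1, 3 lower without naive library 2 or 3, 17 lower without stimulated library 3). Lyve1, a marker of lymphatic endothelium and resident macrophages, had 0.756, 1.92 and 1.96 CPM in stimulated tendon, against 6.15, 7.03 and 8.11 CPM in naive tendon. It fell by 2.16 ± 0.39 on the log2 scale (adjusted p = 0.00393). Mrc1, the mannose receptor gene, had 6.19, 11.9 and 15 CPM in stimulated tendon, against 20.5, 23.7 and 23.6 CPM in naive tendon. It fell by 1.02 ± 0.25 on the log2 scale (adjusted p = 0.0136). Macrophage genes together took 0.00724%, 0.0148% and 0.0245% of the counts of 12-day stimulated libraries, against 0.0263%, 0.0309% and 0.0343% of naive libraries.

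In the lists of cell division, endoplasmic reticulum folding and interferon response more genes were called lower than higher, though most members did not pass. Of 48 cell cycle genes 14 were lower and 1 higher (median -0.81; 7 lower without naive library 3, 8 lower without stimulated library 1 or 2, 9 lower without stimulated library 3, 25 lower without naive library 1). Mcm6, a replicative helicase gene, had 7.23, 7.58 and 7.64 CPM in stimulated tendon, against 10.7, 13.3 and 17.8 CPM in naive tendon. It fell by 0.89 ± 0.17 on the log2 scale (adjusted p = 0.00464). E2f1, a factor gene of S phase entry, had 1.75, 2.03 and 1.9 CPM in stimulated tendon, against 3.36, 3.54 and 6.01 CPM in naive tendon. It fell by 1.18 ± 0.21 on the log2 scale (adjusted p = 0.00354). The exception was Ube2c, a mitotic ubiquitin carrier gene, with 25.3, 21.4 and 29.6 CPM in stimulated tendon, against 15.6, 13 and 12.6 CPM in naive tendon. It rose by 0.89 ± 0.18 on the log2 scale (adjusted p = 0.0062). Mki67, the usual proliferation marker, had 7.28, 5.04 and 4.91 CPM in stimulated tendon, against 6.07, 8.64 and 22.5 CPM in naive tendon. It fell by 1.12 ± 0.38 on the log2 scale (adjusted p = 0.0485; -0.36 without naive library 3; lost without stimulated library 1, 2 or 3 or naive library 3 (adjusted p 0.0729 to 0.295)). Of 28 genes of the endoplasmic reticulum 9 were lower and none higher (4 lower without naive library 3). Pdia4, a disulfide isomerase gene, had 19.6, 18.5 and 18.1 CPM in stimulated tendon, against 34.2, 32.9 and 33.5 CPM in naive tendon. It fell by 0.84 ± 0.12 on the log2 scale (adjusted p = 0.00144). Its relative Pdia3 had 69.6, 70.8 and 69.9 CPM in stimulated tendon, against 123, 108 and 124 CPM in naive tendon. It fell by 0.76 ± 0.12 on the log2 scale (adjusted p = 0.0028). The spread within either group was small in both. Of 39 interferon-stimulated genes 15 were lower and 1 higher (3 lower without stimulated library 1 or naive library 1 or 3, 6 lower without stimulated library 3, 26 lower without stimulated library 2), among them Ddx58, the gene of the RNA sensor RIG-I (-0.82 ± 0.17, adjusted p = 0.00686), and Oasl2 (-0.91 ± 0.19, adjusted p = 0.00705), and Ifi35 was the one higher (0.65 ± 0.12, adjusted p = 0.00393). Of 29 heat shock genes 6 were higher and 1 lower (1 higher without stimulated library 1 or naive library 2 or 3, 2 higher without stimulated library 3, 3 higher without naive library 1). With 24.1% called, the heat shock list was close to the 24.4% of all genes. Hspb8, a small heat shock protein gene of muscle, had 993, 625 and 1471 CPM in stimulated tendon, against 432, 376 and 283 CPM in naive tendon. It rose by 1.5 ± 0.29 on the log2 scale (adjusted p = 0.00553). Ribosomal protein genes had 16 of 53 higher, none lower and a median of 0.23 (0 higher without stimulated library 3 or naive library 3, 1 higher without naive library 2, 2 higher without stimulated library 1, 5 higher without naive library 1). Their share of the unscaled counts did not rise, at 1.23% on average in 12-day stimulated and 1.27% in naive libraries. The groups overlapped in it (exact permutation p = 0.7, two-sided).

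The deposited table also holds rows for transgene sequences. That of the yellow fluorescent protein had 1399, 1372 and 1068 CPM in stimulated tendon, against 1304, 1140.01 and 1045 CPM in naive tendon (log2 fold change 0.14 ± 0.17, adjusted p = 0.571), so the groups overlapped and the difference did not pass. A row for a green fluorescent protein, a near copy, took 2.84, 3.66 and 3.47 CPM in stimulated tendon, against 3.66, 2.75 and 3.02 CPM in naive tendon, and reads may be shared between both. Cre stood at 4.82, 1.59 and 5.89 CPM in stimulated tendon, against 2.97, 1.81 and 0.997 CPM in naive tendon (log2 fold change 1.08 ± 0.55, adjusted p = 0.164), and it had counts in all 3 naive libraries.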

How the data were processed

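RNA of 30 mouse samples, 15 of tendon and 15 of bone, was sequenced from poly-A libraries, per the labels' protocols. The authors deposited one table of expected counts per gene, in whole numbers. The submitters' processing notes name cutadapt 2.3, FastQC 0.11.8, MultiQC 1.7, STAR 2.7.8a, RSEM 1.3.3 and GRCm38; annotation release, strand setting and order of steps: not given in the sources used here. Reads of near-identical genes are split by estimation in such counts, and libraries without a stated strand cannot tell antisense partners apart.

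The 15 tendon libraries were fitted together in edgeR 4.0.16 (R 4.3.3, quasi-likelihood, TMM scaling, filterByExpr with minimum counts of 10 per library and 15 in total), because 3 libraries per group give few degrees of freedom. Calls are at a Benjamini-Hochberg adjusted p under 0.05 over 17108 genes, errors of fold changes are SE derived from the F statistic, and intervals cover counting error only. The procedure was tested on simulated data, and the outcome is not given here. Shares of counts were compared by exact permutation. Positions are those of the GENCODE M21 annotation, to which 99.5% of gene IDs matched. Of 1110 listed genes in 47 lists, 1107 were in the table. The members and lists were chosen with earlier results of these data known.

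Named genes are the 15 called, non-overlapping genes of mean CPM of at least 1 with the largest fold change in each direction (1593 and 1806 genes met the conditions; predicted and sex-linked genes were left out), the 4 of smallest adjusted p in each list, and a fixed set. Some genes that this rule names are not reported here. Pax7, Myog, Nr4a1 and genes said to be so were named after their values were seen. No library was a copy of another of its group: between 41.7% and 55.5% of genes differed beyond counting noise. Alternatives used DESeq2 1.42.0, limma 3.58.1, other filters, scalings, covariates and sample sets.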

Additional observations from a re-analysis of the deposited data

Results flagged for a closer look

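Several genes that differed between 12-day stimulated and naive tendon also differed directly between stimulated and unstimulated tendon at day 12, by edgeR's quasi-likelihood test of that difference. Higher with stimulation, on the log2 scale, were Atf3 (3.11 ± 0.53, adjusted p = 0.0301), Slc25a48 (2.26 ± 0.40, adjusted p = 0.0301), Nmrk2 (1.83 ± 0.34, adjusted p = 0.0428), Ppargc1a (1.59 ± 0.30, adjusted p = 0.0482), Mpp3 (1.56 ± 0.29, adjusted p = 0.0396), Eno2 (1.46 ± 0.15, adjusted p = 0.00132) and Hk2 (1.41 ± 0.14, adjusted p = 0.00132). Lower were Tppp3 (-1.13 ± 0.16, adjusted p = 0.0138), Rian (-1.25 ± 0.18, adjusted p = 0.0146) and Mirg (-1.49 ± 0.21, adjusted p = 0.0138). Irx5, an Iroquois factor gene, was also lower (-4.46 ± 0.67, adjusted p = 0.0162), but its counts were small, at 7 over the 12-day stimulated libraries. Its counts in the unstimulated libraries are not given here. Over the naive libraries, which are not part of this test, Irx5 was counted 42 times, and its difference from naive did not pass (-1.87 ± 0.75, adjusted p = 0.0818). These 11 were found among the genes named here, and 59 genes (0.345%) passed this test in all. Fits with a library left out are given for the comparison with naive tendon only. How far the direct differences rest on single libraries is therefore not shown. Deviations from the group means correlated at -0.0179, 0.0549 and 0.296 between same-numbered stimulated and unstimulated libraries at day 12. The direct test took these libraries as unpaired. Against naive tendon, the difference of 12-day unstimulated tendon did not pass for Nmrk2 (11.5, 15 and 13.9 CPM; -0.26 ± 0.33, adjusted p = 0.604).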

How the results depend on the processing

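Fits with DESeq2 called 2446 genes higher and 2345 lower, DESeq2 size factors in edgeR 2164 and 2026, no filter on low counts 1352 and 1706, a minimum count of 50 1918 and 2175, limma-voom with sample quality weights 2655 and 2508, and scaling without muscle and mitochondrial genes 2073 and 2112. With the replicate number as a block, 2183 were higher and 2385 lower; same-numbered libraries of both groups did not deviate together (correlations of 0.00314, -0.282 and -0.100), so the numbers were not taken to pair the samples. With only the 6 libraries compared, 1279 were higher and 1451 lower. With a library left out, between 782 and 2268 genes were higher and between 867 and 2455 lower, and the counts moved by more than 1.5 times without stimulated library 1 (840 and 873), naive library 2 (1117 and 1427) or naive library 3 (782 and 867). With the mean level of common sarcomere genes as a covariate 9 were higher and 5 lower, with that of interstitial fibroblast genes 15 and 8, and with that of slow-fibre genes, added after seeing the data, 5 and 9; the cause was not tested.

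Of the single genes named, some changed sign. This was so with limma-voom for Myh3 at -0.38, with the sarcomere covariate for Mkx at 0.080, Tnmd at 0.14, Thbs4 at 0.70 and Fmod at 0.34, with the interstitial fibroblast covariate for Igf1 at 0.0034, Piezo2 at 0.021, Ptprc at 0.10, Scd1 at 0.15, Plin1 at 0.17, Tnmd at 0.36, Thbs4 at 1.0, Fmod at 0.39, Comp at 0.20, Col1a2 at 0.14, Col3a1 at 0.26 and Lox at 0.093, and with the slow-fibre covariate for Igf2 at -0.037 and Cre at -0.71, all log2 fold changes. With a library left out, Myh3 ran between -1.0 (without stimulated library 3) and 1.33. None of the genes called higher or lower changed sign with a library left out. With mitochondrially encoded genes left out of the totals, the shares of counts kept their direction except that of the nuclear respiratory chain (1.90% in stimulated and 1.90% in naive tendon, against 1.75% in both with them). List counts of 0 or 1 in a direction lay between 0 and 2 with a library left out, except the 6 mitochondrial genes higher without stimulated library 3.

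The median of all genes lay between -0.013 and 0.0017 on the log2 scale under the 3 scalings tried. Each of them sets the typical gene near 0, so these medians cannot test the scaling. Depth limits genes of few counts, such as Bglap, Bglap2 and Irx5.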

Other observations

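Genes of several other cell types that a dissected tendon can hold are given here as values. Of 22 endothelial genes 2 were lower in 12-day stimulated than in naive tendon and none higher (median -0.024). This was 9.09% of the list, against 24.4% of all genes called. The 2 were Lyve1, which is also in the macrophage list, and Prox1, a lymphatic factor gene. Prox1 had 4.02, 3.41 and 2.73 CPM in stimulated tendon, against 6.3, 9.63 and 9.02 CPM in naive tendon (log2 fold change -1.3 ± 0.30, adjusted p = 0.0099). Endothelial genes took 0.0858% ± 0.0239 of the counts of 12-day stimulated libraries and 0.106% ± 0.0152 of those of naive libraries (mean ± SD, n = 3 each), and the groups overlapped (exact permutation p = 0.3, two-sided). Of 15 adipocyte genes 1 was higher and none lower, 6.67% called against 24.4% of all genes. Of the 15, 13 had fold changes below 0, and the median was -0.92. The higher one was Car3, a carbonic anhydrase gene of fat and slow muscle. It had 2189, 2306 and 2493 CPM in stimulated tendon, against 1158, 1232 and 1330.1 CPM in naive tendon (log2 fold change 0.91 ± 0.19, adjusted p = 0.0069). The fat genes Plin1 (-1.63 ± 0.60, adjusted p = 0.0639) and Scd1 (-1.95 ± 0.68, adjusted p = 0.0531) did not pass. Of 18 Schwann cell and nerve genes 1 was lower, Egr2, which is also an immediate early gene (median 0.0074). With a library left out the median ran between -0.416 (without naive library 1) and 1.84 (without naive library 2). The list took 0.0544%, 0.00853% and 0.0543% of the counts of 12-day stimulated libraries, against 0.0158%, 0.126% and 0.0168% of naive libraries.

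Of 5 lymphocyte genes 3 were lower (0 lower without stimulated library 1 or naive library 1 or 3, 1 lower without stimulated library 2 or naive library 2). Among them were Ptprc, the gene of CD45 (1.28, 2.86 and 4.79 CPM in stimulated tendon, against 6.59, 5.67 and 6.19 CPM in naive tendon; log2 fold change -1.02 ± 0.34, adjusted p = 0.0431), lost without stimulated library 1 or 2 or naive library 1, 2 or 3 (adjusted p 0.074 to 0.105), and Ighm, the immunoglobulin M gene (-1.05 ± 0.28, adjusted p = 0.0195), lost without stimulated library 1 or naive library 1 or 3 (adjusted p 0.0578 to 0.066). Of 8 neutrophil genes 1, Mmp9, was lower, and Ltf, a granule gene, was counted 0 times in 12-day stimulated libraries, which allows up to 3 counts over the group, and 37 times in naive libraries (edgeR adjusted p = 0.0766). S100a9, a calprotectin subunit gene, was counted 3 times in 12-day stimulated and 55 times in naive libraries (edgeR adjusted p = 0.0997).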
